A study of Mus musculus with 8 samples.

Results

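The 10 genes described here encode the alpha- and beta-tubulins that make up most microtubules of the mouse brain. They were taken by symbol from the deposited table of transcript levels, which holds 24343 genes, and all 10 were found. Of these, 4 encode alpha-tubulin (Tuba1a, Tuba1b, Tuba1c and Tuba4a) and 6 encode beta-tubulin (Tubb2a, Tubb2b, Tubb3, Tubb4a, Tubb4b and Tubb5). The measurements are bulk RNA-seq of the whole brain of 3 C57BL/6NCrl mice aged 56 to 62 days, where mice 1 and 2 gave 3 libraries each and mouse 3 gave 2. The labels name no mutation and no treatment. All libraries were therefore taken as a single condition, and the only groups that could be compared were the individual mice. The labels do not state what separates the libraries of a mouse, and p-values between mice therefore measure only the spread between libraries of these 3 animals.

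Microtubules are hollow polymers of heterodimers, each made of an alpha- and a beta-tubulin. Mammals carry several genes of either kind, and the proteins they encode (isotypes) differ mainly in the acidic tail at the carboxy terminus, which faces outwards and is where motors, microtubule-associated proteins and modifying enzymes act. Neurons are rich in tubulin because axons and dendrites are filled with microtubules, and mutations in several of these genes cause malformations of the cortex or loss of myelin in humans. New tubulin is folded by the chaperonin CCT, prefoldin and the tubulin cofactors, and the amount of tubulin mRNA is itself held in check by free tubulin through a factor, TTC5, that recognises the start of the nascent chain.

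The coding sequences show how far the members can be told apart at the level of RNA, and the ends of 5 of them are given because the isotypes differ there and because reads from near-identical stretches limit what the levels mean. Each line holds the last 60 bases of the coding sequence with the stop codon, 5′ to 3′, from the GENCODE M21 transcripts of GRCm38. Capitals mark bases that lie in no stretch of 12 bases shared with the coding sequence of another member.
Tuba1c: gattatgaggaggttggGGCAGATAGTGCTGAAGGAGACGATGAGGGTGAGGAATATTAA
Tubb2a: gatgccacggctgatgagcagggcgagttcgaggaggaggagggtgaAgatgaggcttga
Tubb2b: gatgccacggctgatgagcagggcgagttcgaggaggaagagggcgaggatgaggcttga
Tubb3: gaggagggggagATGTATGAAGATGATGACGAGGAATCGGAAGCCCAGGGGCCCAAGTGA
Tubb4a: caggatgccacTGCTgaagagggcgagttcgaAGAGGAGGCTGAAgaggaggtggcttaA
Of these 60 bases, 43 were marked as distinct in Tuba1c, 48 in Tubb3, 18 in Tubb4a, 1 in Tubb2a and 0 in Tubb2b.

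The starts of the coding sequences are shown because this is where the nascent chain is read in the control of tubulin mRNA. Each line holds the first 24 bases, with the first 12 (the start codon and the 3 codons after it) in capitals.
Tuba1a: ATGCGTGAGTGCatctccatccat
Tuba4a: ATGCGCGAGTGCatttcagtccat
Tubb3: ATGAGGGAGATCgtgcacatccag
Tubb4a: ATGCGGGAAATCgtgcacctgcaa
The first 12 bases were the same in Tuba1a, Tuba1b and Tuba1c, and the same in Tubb3 and Tubb4b, whereas the other 5 members each had a run of their own. Within each class these runs differ only in codons for the same amino acid. All alpha members start with Met-Arg-Glu-Cys and all beta members with Met-Arg-Glu-Ile, so the start of the nascent chain is the same within a class.

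Across whole coding sequences, Tuba1a and Tuba1b were 98.3% identical, Tuba1b and Tuba1c 97.9%, Tuba1a and Tuba1c 97.1%, and Tubb2a and Tubb2b 96.5%. Tuba4a was between 84.7% and 85.3% identical to the other alpha members. Other pairs of beta members lay between 81.45% and 84.6%, and pairs of an alpha and a beta member between 55.9% and 58.5%. The near-identical genes are neighbours in the genome. In the deposited table, which uses the build mm10, Tuba1b lies at chr15:98931431-98934390, Tuba1a at chr15:98949847-98953501 and Tuba1c at chr15:99029891-99038105. Tubb2a lies at chr13:34074280-34078008 and Tubb2b at chr13:34127008-34130354. The remaining members are dispersed, with Tuba4a at chr1:75214974-75219253, Tubb3 at chr8:123411564-123422010, Tubb4a at chr17:57080066-57087782, Tubb4b at chr2:25222158-25224702 and Tubb5 at chr17:35833920-35838301. Each member is represented by 1 transcript in the table and has 4 exons in the annotation.

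How much of each transcript could give reads that also match another gene was counted as the share of its 50-base stretches found, on either strand, in an annotated transcript of another gene. The GENCODE M21 transcripts were used, and several are longer than those in the deposited table, such as Tuba4a (2840 against 2053 bases) and Tuba1a (1803 against 1591). The shares therefore need not hold for the transcripts that gave the FPKM. The share was 75.5% for Tuba1a, 83.1% for Tuba1b and 61.0% for Tuba1c, and Tuba1a and Tuba1b each shared most with Tuba1c. It was 49.6% for Tubb2a and 39.3% for Tubb2b, which shared mostly with each other. For Tubb4b it was 55.5%, mostly with a gene annotated as Tubb4b-ps1, and for Tuba4a it was 48.8%, nearly all with the overlapping gene Stk16 on the opposite strand, since only 1.11% lay on the same strand. Tubb4a (0.184%), Tubb5 (0.115%) and Tubb3 (0) had almost no such stretches. The levels of Tuba1a, Tuba1b, Tuba1c, Tubb2a, Tubb2b and Tubb4b are therefore uncertain to the extent that the authors' estimation divided shared reads between genes, and that of Tuba4a to the extent that strand was not used, which is not given in the sources used here. By this count of exact matches in annotated transcripts, the levels of Tubb3, Tubb4a and Tubb5 hardly have this limit. Near matches and sequence outside annotated transcripts were not counted.

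**Figure D1:**
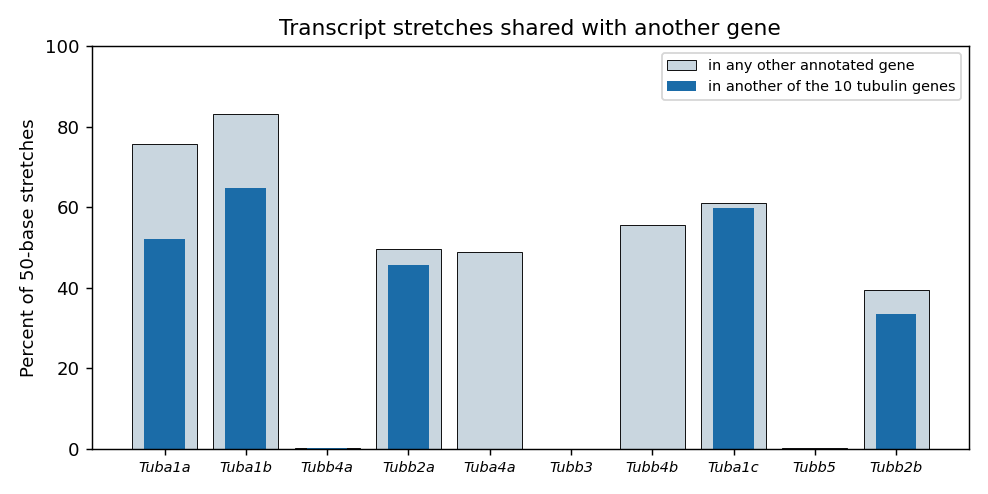
Share of 50-base stretches of each member's GENCODE M21 transcript (percent, y axis) that occur in an annotated transcript of any other gene (wide bars) or of another of the 10 tubulin genes (narrow bars). Tuba1b has the highest bar (83.1%) and Tubb3 none.

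Levels are given as FPKM (fragments scaled to transcript length and library size), which takes out the length of the transcript so that genes can be compared, as the mean over libraries of a mouse and then over the 3 mice. Tuba1a, the main alpha-tubulin of developing and adult neurons, was the highest at 530 ± 99.8 FPKM (SD between mice, n = 3), which placed it at rank 54 of all 24343 genes. Tuba1b, a widely expressed alpha-tubulin, followed at 277 ± 30.1 FPKM, and Tuba4a, whose protein is made without the terminal tyrosine of other alpha-tubulins, at 175 ± 16.3 FPKM. Tuba1c was the lowest of the alpha genes at 119 ± 18.3 FPKM. Together the 4 alpha genes summed to 1101 ± 141 FPKM, with Tuba1a holding 47.9% ± 2.86 of the sum, Tuba1b 25.2% ± 0.478, Tuba4a 16.1% ± 2.74 and Tuba1c 10.8% ± 0.357.

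Among the beta genes, Tubb4a, which is known for its high level in oligodendrocytes as well as in neurons, was the highest at 261 ± 56.3 FPKM. Tubb2a, a major beta-tubulin of neurons, stood at 204 ± 17.0 FPKM, and Tubb3, the beta-tubulin that is used as a marker of neurons, at 143 ± 11.1 FPKM. Tubb4b, which is also a beta-tubulin of cilia, stood at 139 ± 10.9 FPKM and the broadly expressed Tubb5 at 119 ± 8.88 FPKM. Tubb2b, known for its part in cortical development, was the lowest member at 82.7 ± 11.1 FPKM, and still at rank 715 of all genes. The 6 beta genes summed to 949 ± 77.2 FPKM, of which Tubb4a held 27.3% ± 4.15, Tubb2a 21.5% ± 0.202, Tubb3 15.1% ± 0.150, Tubb4b 14.8% ± 2.05, Tubb5 12.5% ± 0.0882 and Tubb2b 8.80% ± 1.79. All 10 members lay among the highest 2.94% of genes in the table.

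The 10 members summed to 2051 ± 116 FPKM. The order of levels was the same in all 6 libraries of mice 1 and 2, in which Tubb4a came next to Tuba1a and ahead of Tuba1b. Going down the order of means, the neighbours that did not differ beyond their spread were Tuba1b and Tubb4a (log2 difference 0.11 ± 0.468, SD over 3 mice), Tubb3 and Tubb4b (0.04 ± 0.181) and Tuba1c and Tubb5 (-0.01 ± 0.30). Each of these pairs changed places between mice 1 and 2 on one side and mouse 3 on the other. The other 6 pairs of neighbours kept their order in all 8 libraries, from Tuba1a over Tuba1b (0.92 ± 0.111) at the top to Tubb5 over Tubb2b (0.53 ± 0.275) at the bottom. Tubb2a and Tubb2b, although near-identical in sequence, stood at 204 and 82.7 FPKM, within the limit of shared reads given above.

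**Figure D2:**
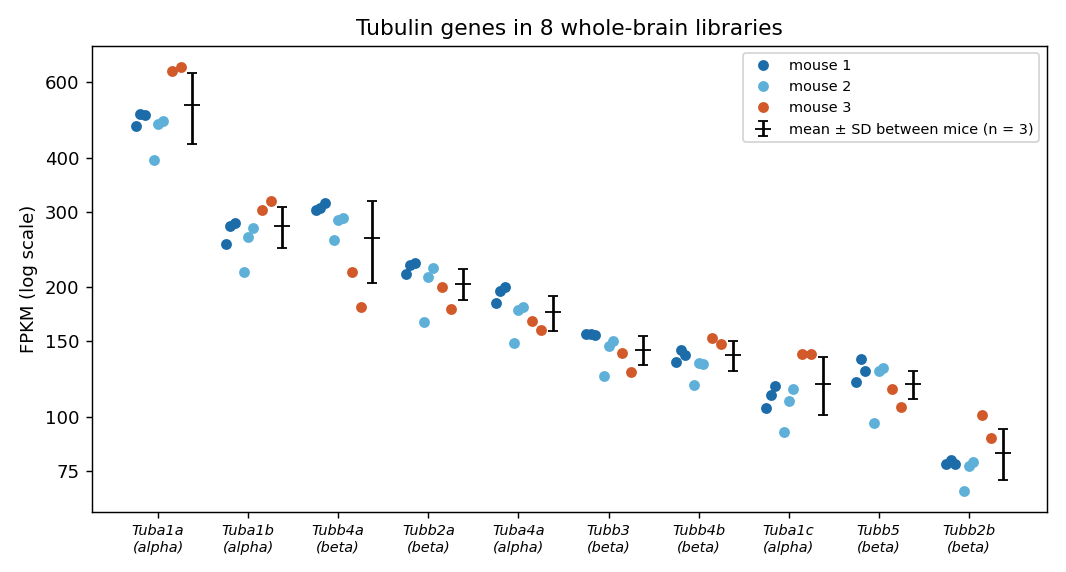
FPKM (log scale, y axis) of each tubulin gene in 8 libraries, 1 point per library coloured by mouse, with the mean and SD between the 3 mice in black. The points of mouse 3 lie above all others for Tuba1a, Tuba1b, Tuba1c, Tubb2b and Tubb4b and below all others for Tubb4a.

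Whether the 3 brains held the same mix of isotypes was asked on log2(FPKM + 1) values by the moderated F-test of limma. It was fitted to 13001 genes whose mean reached 1 FPKM and adjusted over all of them by the Benjamini-Hochberg method. Differences below are those of mouse 3 from the mean of mice 1 and 2 on this scale. Of the 10 members, 2 passed an adjusted p of 0.05, Tuba1a with mouse 3 highest and Tubb4a with mouse 3 lowest. The background is broad, since 25.5% of all genes tested passed, 14.1% with mouse 3 highest and 11.3% with mouse 3 lowest, so 2 of 10 is no more than the rate among all genes. Of all calls, 55.3% had mouse 3 highest, and 14.02% with all libraries at an equal total. Over the members the median difference was 0.01, against 0.02 over all genes tested. In bulk RNA, fewer cells of a type and less RNA per cell cannot be told apart.

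Tuba1a was at 473, 504 and 502 FPKM in the libraries of mouse 1, at 395, 478.5 and 486 in those of mouse 2 and at 636 and 649 in those of mouse 3. Both libraries of mouse 3 were above all 6 others, and their mean was 1.36 times that of the others. The difference was 0.45 (SE 0.0939, adjusted p = 0.0236, limma F-test). When all libraries were set to an equal total FPKM, which shifts the median of all genes tested by -0.23, it was 0.15 (adjusted p = 0.194), or 0.37 above that median. With the trend of each library with transcript length taken out it was 0.23 (adjusted p = 0.0611), so that the call did not hold in either case while the direction did. The call was also lost without the second or the third library of mouse 1 (adjusted p = 0.0517 and 0.0533) and without either library of mouse 3 (0.0579 and 0.146).

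Tubb4a was at 302, 305 and 315 FPKM in the libraries of mouse 1, at 257, 286 and 289.5 in those of mouse 2 and at 217 and 179.8 in those of mouse 3. Both libraries of mouse 3 were below all 6 others, and their mean was 0.678 times that of the others. It fell by 0.56 (SE 0.0916, adjusted p = 0.0112, limma F-test), and it passed the threshold in 17 of 18 other fits that kept mouse 3. The exception left out the second library of mouse 3 (adjusted p = 0.0809), a fit in which the calls over all genes went from 3310 to 126.

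The other alpha genes did not pass the test. Tuba1b was at 253, 278 and 281 FPKM in mouse 1, at 217, 262 and 274 in mouse 2 and at 303 and 318 in mouse 3 (difference 0.25, adjusted p = 0.153). Tuba1c was at 105, 112.5 and 118 FPKM in mouse 1, at 92.2, 109 and 116 in mouse 2 and at 140.2 and 140.0 in mouse 3 (0.37, adjusted p = 0.0544). In both genes the libraries of mouse 3 stood above all others, as for Tuba1a. The difference of Tuba1b turned to -0.05 with all libraries at an equal total, which is 0.18 above the median of all genes in that fit. Tuba4a was at 184, 196 and 200.4 FPKM in mouse 1, at 148, 177 and 180.3 in mouse 2 and at 167 and 159 in mouse 3, and here the groups overlapped (-0.15, adjusted p = 0.161). Without the length trend Tuba4a passed at -0.26 (adjusted p = 0.0431, limma F-test).

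Of the other beta genes, Tubb2b was at 77.7, 79.65 and 77.9 FPKM in mouse 1, at 67.5, 77.0 and 78.7 in mouse 2 and at 101 and 89.5 in mouse 3 (0.32, adjusted p = 0.0571). Tubb4b was at 134, 143 and 139 FPKM in mouse 1, at 119, 133 and 133 in mouse 2 and at 152.5 and 148 in mouse 3 (0.17, adjusted p = 0.162). In both, mouse 3 stood above all other libraries, although the deposited confidence bounds of Tubb4b in mouse 3 overlapped those of others, and the difference of Tubb4b turned to -0.13 with all libraries at an equal total and to -0.04 without the length trend. Tubb2a, Tubb3 and Tubb5 overlapped between mice. Tubb2a ranged from 167 to 228 FPKM over the libraries, with 201 and 178 in mouse 3 (-0.15, adjusted p = 0.327). Tubb3 ranged from 124 to 156 FPKM, with 141 and 127 in mouse 3 (-0.14, adjusted p = 0.239), and Tubb5 from 96.8 to 137 FPKM, with 116 and 105 in mouse 3 (-0.15, adjusted p = 0.443). Without the length trend Tubb3 passed at -0.32 (adjusted p = 0.0469, limma F-test), while Tubb2a and Tubb5 did not pass. With all libraries at an equal total, Tuba4a, Tubb2a, Tubb3, Tubb4a and Tubb5 all passed with mouse 3 lowest, by 0.44 to 0.86. In that fit 37.0% of all genes passed with mouse 3 lowest, and against the median of all genes Tubb4a lay at -0.63 and the other 4 at -0.21 to -0.22.

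The libraries of mouse 3 thus lay above all 6 others for 5 members and below them for 1, against 26.5% of all genes tested above and 21.7% below. The confidence bounds of both libraries were also clear of all others for these members except Tubb4b. The 5 members with mouse 3 above all others carry the limit of shared reads given above. Between mice 1 and 2 alone, 0 of the 10 members passed limma's test (smallest adjusted p = 0.881) and 0 had an unadjusted p under 0.05. Every member was lower in mouse 2 than in mouse 1, by up to 0.20 for Tuba4a, where the median of all genes tested was -0.05. The first library of mouse 2 had the lowest value of the 6 libraries of those mice for all 10 members and also the fewest bases on transcripts.

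**Figure D3:**
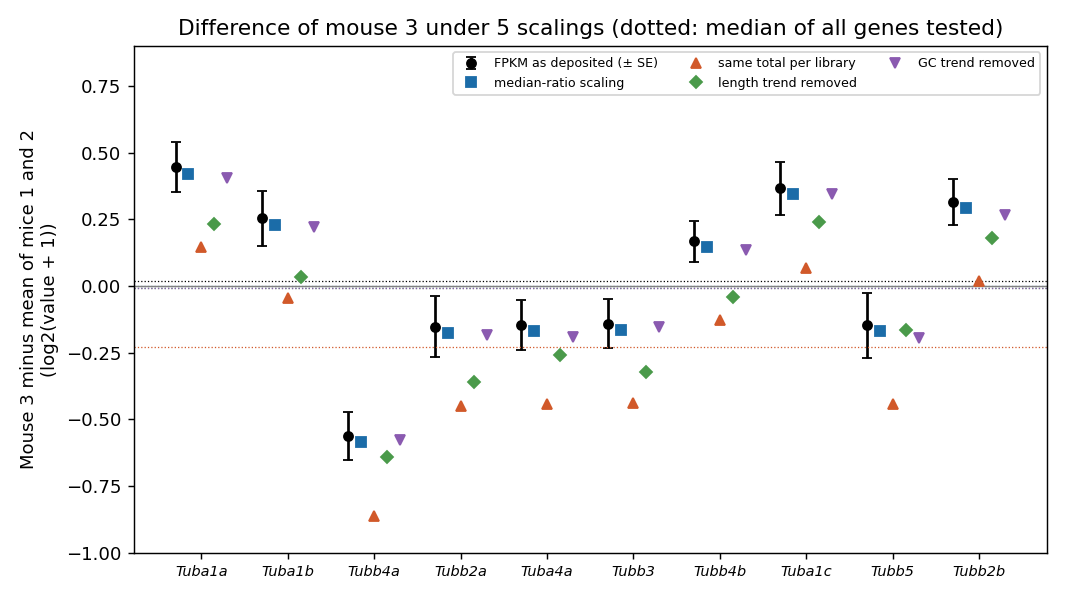
Difference of mouse 3 from the mean of mice 1 and 2 (log2, y axis) for each tubulin gene with FPKM as deposited (black, ± SE) and under 4 other scalings (colours), with the median of all genes tested under each scaling as a dotted line. Tubb4a lies below 0 and below the median in each, Tuba1a above 0 in each, and Tuba1b and Tubb4b cross 0.

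Ratios within a library do not depend on how libraries are scaled to each other, so the mix of isotypes was also described by shares. Shares and ratios do carry trends within a library, such as that with transcript length given below. That trend was not taken out of the shares and ratios given. Among alpha genes, Tuba1a held between 45.6% and 46.6% of the summed alpha FPKM in the 6 libraries of mice 1 and 2, and 51.1% and 51.3% in those of mouse 3. The share of Tuba4a was between 17.1% and 18.2% in mice 1 and 2 and 13.4% and 12.6% in mouse 3. Tuba1b kept overlapping shares (24.3% to 26.0% over all libraries), and Tuba1c was a little higher in both libraries of mouse 3 (11.3% and 11.1%) than in any other, with means of 10.4% in mouse 1 and 10.8% in mouse 2. The ratio of Tuba1a to Tuba1b was 1.77 to 1.87 in mice 1 and 2, and 2.10 and 2.04 in mouse 3.

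Among beta genes, the share of Tubb4a was between 28.8% and 31.0% in mice 1 and 2 and 23.4% and 21.7% in mouse 3. The shares of Tubb4b (16.4% and 17.8%, against 13.2% to 14.3%) and Tubb2b (10.9% and 10.8%, against 7.46% to 8.12%) were higher in mouse 3 than in any other library. Tubb2a, Tubb3 and Tubb5, 3 of the 6 beta genes, held overlapping shares in the mice, which differed between mouse means by an SD of at most 0.202 percentage points. The ratio of Tubb2b to Tubb2a was 0.505 and 0.502 in mouse 3 and between 0.342 and 0.405 elsewhere. Because shares sum to 100% within alpha or beta, a lower share of one gene raises the others, and these values are given as a description without a test.

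**Figure D4:**
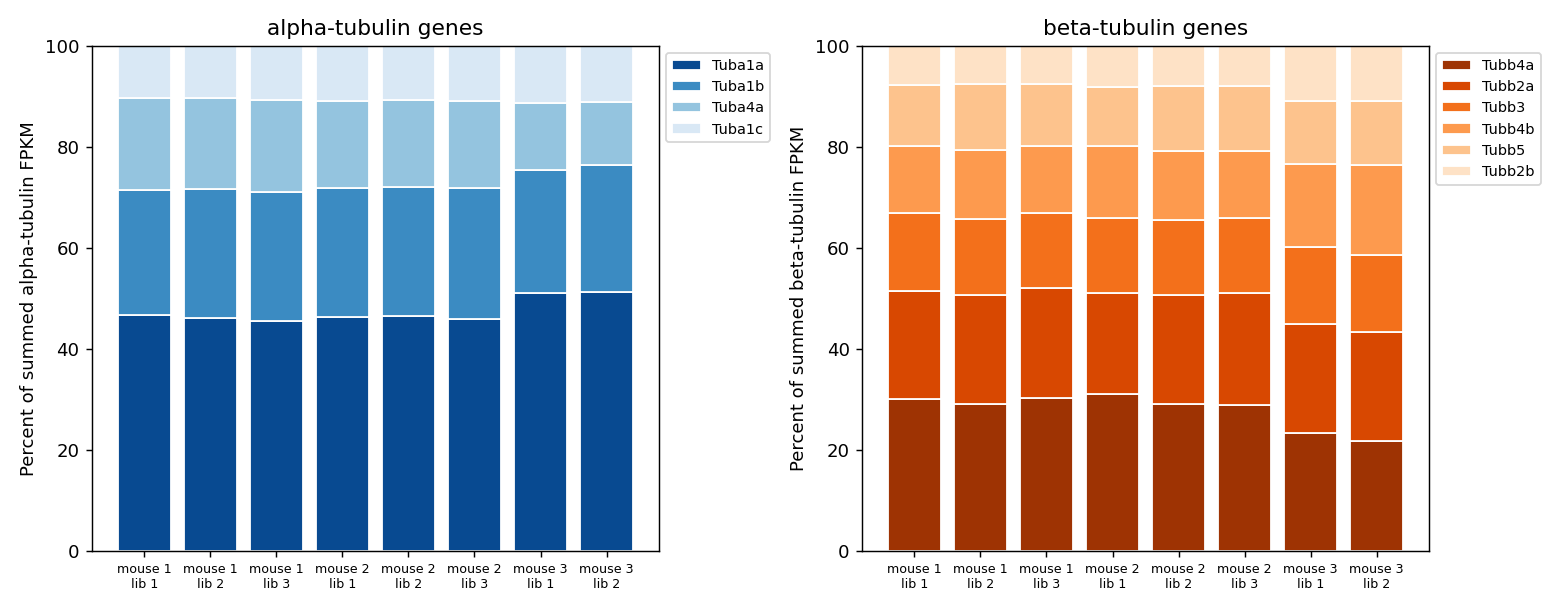
Percent of the summed alpha-tubulin FPKM (left) and beta-tubulin FPKM (right) held by each gene in each of the 8 libraries, stacked to 100%. The bars of mice 1 and 2 look alike, while those of mouse 3 have more Tuba1a and less Tuba4a on the left, and less Tubb4a and more Tubb4b and Tubb2b on the right.

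Since alpha- and beta-tubulin are used in equal amounts in the heterodimer, the ratio of their summed mRNA was compared between the mice. It was 1.01, 1.04 and 1.06 in the libraries of mouse 1, 1.03, 1.05 and 1.05 in those of mouse 2, and 1.34 and 1.53 in those of mouse 3. An exact permutation test over all 280 groupings of the 8 libraries into 3, 3 and 2 gave p = 0.0286 for the difference between mice, where 0.00357 is the smallest p the design allows. The log2 difference of mouse 3 was 0.46, and it was 0.32 both without Tuba1a (p = 0.0357) and without Tubb4a (p = 0.0286), in the same exact permutation test. Leaving out 1 library at a time left fewer groupings, and p was then between 0.0476 and 0.114 with a log2 difference of 0.37 to 0.56. Between mice 1 and 2 alone the ratio differed by 0.01 on the log2 scale (exact permutation p = 0.8 over 10 groupings). Summed alpha FPKM was 1246 and 1266 in mouse 3 and between 852 and 1102 elsewhere, whereas summed beta FPKM overlapped, at 928 and 828 in mouse 3 and 831 to 1046 elsewhere.

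**Figure D5:**
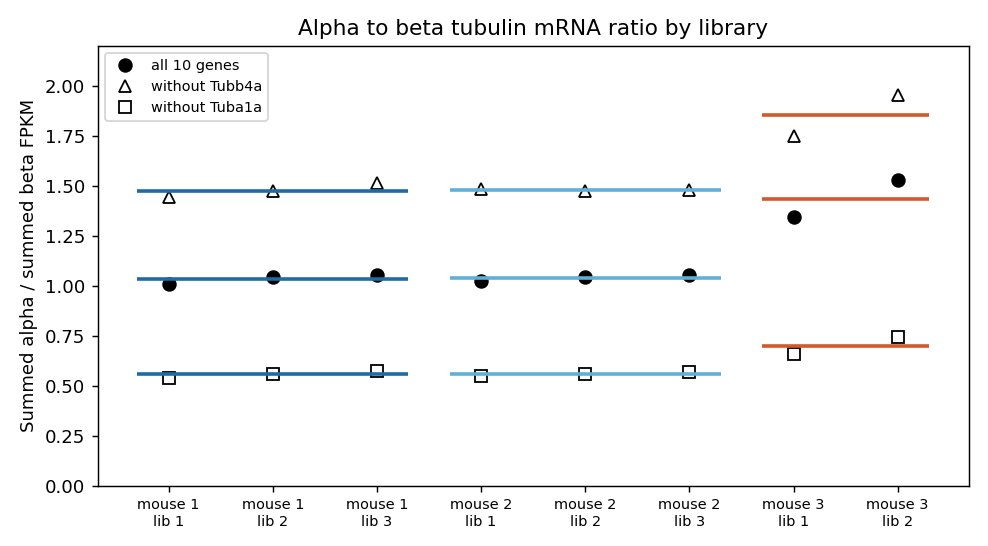
Ratio of summed alpha to summed beta tubulin FPKM (y axis) in each library for all 10 genes (filled circles), without Tubb4a (triangles) and without Tuba1a (squares), with a coloured line at the mean of each mouse. In all 3 versions both libraries of mouse 3 lie above the 6 others, which are close to 1.04 for all 10 genes.

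The summed level of the 10 members was 2019, 2137 and 2145 FPKM in mouse 1, 1683, 2009.9 and 2061 in mouse 2 and 2174 and 2093 in mouse 3. These values overlapped, and the exact permutation test over 280 groupings gave p = 0.186, with a log2 difference of 0.09 for mouse 3. As a share of each library's total FPKM, the members held 0.565% and 0.511% in mouse 3 and between 0.570% and 0.658% elsewhere. With all libraries at an equal total the summed level was therefore lower in mouse 3 (-0.21, exact permutation p = 0.0214), opposite in sign to the difference in FPKM as deposited.

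Several properties of the libraries moved with mouse 3 beside these results. Of all genes tested, 14.1% passed with mouse 3 highest and 11.3% with mouse 3 lowest. Both libraries of mouse 3 lay above all 6 others for 26.5% of all genes tested and below them for 21.7%. The sum of 7 oligodendrocyte markers was 4134 and 5048 FPKM in mouse 3 and 2197 to 2445 elsewhere (3 of 7 passed the test, all with mouse 3 highest), and that of 6 astrocyte markers 1323 and 1366 against 811 to 874 (6 of 6, all highest). Mbp makes up most of the oligodendrocyte sum, with means of 1288, 1322 and 3166 FPKM in mice 1, 2 and 3. Cnp, of the same list, was at 151, 142 and 152 FPKM and did not pass. The sum of 9 neuron markers was 1829 and 1954 FPKM in mouse 3 and 2081 to 2248 elsewhere (3 of 9, all lowest). Snap25, the highest of them, had means of 1112, 1056 and 999 FPKM in mice 1, 2 and 3 and did not pass. Nefl (0.16) and Stmn2 (0.04) went the other way and did not pass either. Of the 5 immature neuron markers, whose sum was 510.0 and 598 FPKM in mouse 3 against 322 to 407, Stmn1 passed with mouse 3 highest and Dcx with mouse 3 lowest. That sum is nearly all Stmn1, with means of 377, 347 and 538 FPKM in mice 1, 2 and 3, while Dcx was at 4.56, 4.44 and 2.45. Microglial markers (88.1 and 90.8 against 65.6 to 76.3, 2 of 5 passed), endothelial markers (51.6 and 54.8 against 32.8 to 44.9, 0 of 4 by limma and 1 at an unadjusted p under 0.05), ependymal markers (18.9 and 20.9 against 9.71 to 13.5, 3 of 5) and blood markers (801 and 897 against 530 to 659, 1 of 5) also had higher sums in mouse 3. Choroid plexus markers (435 and 566 against 322 to 552) overlapped, with 1 of 5, Kl, passing with mouse 3 lowest, pituitary markers were at most 3.17 FPKM in sum and markers of tissues outside the brain at most 0.728, with Alb, a liver gene, at 0 in every library.

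Transcript length also moved with mouse 3. Over the genes tested, Spearman's rho of transcript length with a library's deviation from the mean was -0.363 and -0.574 in mouse 3 and between 0.182 and 0.502 in the 6 other libraries. Among the members, Tubb4a has a transcript of 2228 bases, and the 5 genes for which mouse 3 stood highest have transcripts of 1562 to 1977 bases, while the 4 that overlapped have 1605 to 2645. The bases read on transcripts were alike, at 1.73 and 1.79 gigabases in mouse 3 and 1.31 to 2.02 elsewhere. The part of the marker genes and of transcript length in the differences between mice was not tested, and with 1 mouse standing apart, the animal and its libraries cannot be told apart.

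Over the 6 libraries of mice 1 and 2 all pairs of members went along with each other (Pearson's r of 0.831 to 0.994). The first library of mouse 2 was the lowest of these 6 for every member. It therefore weighs on each of these r values, which were not computed without it. Over all 8 libraries the members separated into groups, a split that rests on mouse 3. Tuba1a went along with Tuba1b, Tuba1c, Tubb2b and Tubb4b (Pearson's r of 0.936 to 0.982), and Tuba4a, Tubb2a, Tubb3 and Tubb5 with each other (0.918 to 0.975). Tuba1a and Tubb4a had r = -0.686 over all 8 libraries and 0.924 over the 6 libraries of mice 1 and 2, and Tubb2a and Tubb2b 0.077 and 0.984. These values are descriptions over few libraries that share animals. For Tuba1a, Tuba1b, Tuba1c, Tubb2a, Tubb2b and Tubb4b they also carry the limit of shared reads given above. Among 12991 other genes, those whose log2 level was most like that of the summed members over 8 libraries were Pgs1 (r = 0.990), Lmf2 (0.990), Golga7b (0.990), Ppp2r5b (0.988) and C1qtnf4 (0.987), at mean levels of 4.02 to 40.4 FPKM. The summed level stood apart in the first library of mouse 2 (1683 FPKM, with the next library at 2009.9). That library therefore weighs on these r values as well, and they were not computed without it.

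The other genes of the tubulin pathway were taken from lists chosen for their known roles. Of 67 such genes, 66 were found (Svbp was not), 55 were tested, and 15 passed, 11 with mouse 3 highest and 4 with mouse 3 lowest, or 27.3% of those tested against 25.5% of all genes. Without the second library of mouse 3 only Pfdn5 passed, and without 1 library of mouse 1 there were 7 or 8 calls. Other tubulin genes were low in the whole brain, and the 10 of them summed to between 48.9 and 58.3 FPKM per library. The gamma-tubulin gene Tubg2, the highest of them, was at 20.4 ± 0.754 FPKM. Tubb6 was at 2.49, 2.47 and 1.52 FPKM in mice 1, 2 and 3 and fell by 0.47 (adjusted p = 0.0165), as the only gene of the 5 tested here to pass.

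Of 21 genes for the folding of tubulin, all were tested and 8 passed, each with mouse 3 highest (14.1% of all genes tested did so), and the sum of the list was 1462.5 and 1834 FPKM in mouse 3 and 1042 to 1171 in the other libraries. Pfdn5, a subunit of prefoldin, which carries newly made tubulin and actin chains to the chaperonin, was the highest of the list and changed the most, with means of 151.5, 165 and 389 FPKM in mice 1, 2 and 3 (1.28, SE 0.122, adjusted p = 0.0051). The prefoldin gene Pfdn1 differed by 0.61, and the chaperonin genes Tcp1, Cct3 and Cct5 by 0.53, 0.45 and 0.44. The tubulin cofactor genes Tbca and Tbcb, which take up folded beta- and alpha-tubulin, differed by 0.69 and 0.52, and Arl2, the small GTPase that works with the cofactors, by 0.55. The other 5 chaperonin genes did not pass, with differences of 0.46 for Cct4 (adjusted p = 0.0609), 0.35 for Cct6a (0.0508), 0.33 for Cct7 (0.0585), 0.04 for Cct2 (0.930) and 0.03 for Cct8 (0.875), and subunits were not tested against each other. With all libraries at an equal total, Pfdn5 and Tbcb alone of the 8 passed with mouse 3 highest, where 6.08% of all genes did so. Without the length trend 4 of the 8 calls were lost, as Tbca turned to -0.10 and Arl2, Tbcb and Pfdn1 stood at 0.03, 0.16 and 0.20, while Pfdn5 passed at 0.64.

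Of the 8 genes of the gamma-tubulin ring complex, which nucleates microtubules, Mzt1 alone passed (30.5, 31.9 and 46.1 FPKM in mice 1, 2 and 3, a difference of 0.53, adjusted p = 0.0317), and it did not pass with all libraries at an equal total or without the length trend. Of 25 tubulin-modifying enzyme genes, 18 were tested and 4 passed, no more than the rate of 25.5% among all genes tested. The deglutamylase gene Agbl3 (0.65) and the deacetylase gene Sirt2 (0.27), which is known for its high level in oligodendrocytes, had mouse 3 highest, and the polyglutamylase gene Ttll7 (-0.43) and the deglutamylase gene Agbl4 (-0.61) had it lowest. Sirt2 was the highest gene of that list at 66.1 ± 7.62 FPKM, and its difference turned to -0.03 with all libraries at an equal total and its call was lost whichever of the 8 libraries was left out. Without the length trend Ttll7 stood at -0.20 (adjusted p = 0.0882), and Agbl3 passed at 0.35. Of the 3 genes for the control of tubulin mRNA by free tubulin, Scaper, which links TTC5 to the enzyme that shortens the mRNA tail, was at 8.87, 7.79 and 5.87 FPKM and fell by 0.44 (adjusted p = 0.0108). Ttc5 was at 15.6, 15.1 and 19.8 FPKM (0.35, adjusted p = 0.0758).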

How the data were processed

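Bulk RNA-seq of whole brain was analysed for 8 libraries of 3 C57BL/6NCrl mice, grouped by mouse. The study isolated RNA by RNAqueous Micro kit, required an integrity score over 8, prepared libraries by Kapa mRNA HyperPrep and read them on a NextSeq500. The submitters' processing notes name TopHat, Cufflinks and the build mm10. Versions, read length and strand setting are not given in the sources used here. The authors deposited FPKM for 34535 transcripts of 24343 genes, beside lower and upper bounds and a status. The coverage that was deposited, a read depth per base, multiplied by transcript length gave 1.31 to 2.02 gigabases on transcripts per library. FPKM divide reads that match several genes by estimation, scale with the total of the library and are not counts, which leaves no counting interval. Of the genes, 99.3% overlapped their RefSeq locus on GRCm38, and starts in the table count from 0 and were raised by 1.

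FPKM were summed over the transcripts of a gene and averaged over libraries and then mice. The mice were compared by limma 3.58.1 in R 4.3.3 (moderated F-test of log2(FPKM + 1), mean of at least 1 FPKM, Benjamini-Hochberg adjustment, threshold 0.05) and, for the summed level and the alpha to beta ratio, by an exact permutation test of the F statistic, in effect two-sided. Ranges were called apart where both libraries of mouse 3 lay above, or below, the 6 others. Alternatives were another pseudocount (0.1), no minimum or 5 FPKM, the same total per library, median-ratio scaling, removal of trends with transcript length or GC content, the highest transcript, limma's trend and robust settings, the library number as a block, other means, the confidence bounds, and leaving out libraries or mouse 3. The limma step was tested on simulated data of 13001 genes.

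The members and lists were chosen with earlier results of these data known. The text names all members, pathway genes that passed or were highest of their list, and the 5 genes most like the summed members. Cct2, Cct4, Cct6a, Cct7, Cct8, Svbp and the marker genes named singly fall outside it and were picked with their values in view. Coding sequences are those of the GENCODE M21 transcripts matched to the RefSeq transcripts of all 10 members. Protein sequences were not used here. The ends of the other coding sequences are not reported here.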

Additional observations from a re-analysis of the deposited data

Results flagged for a closer look

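Of 34 measures per library (the 10 members, their sums, shares and ratios), 2 had a library that stood apart from the other 7, by a gap above 0.526 of the whole range (Dixon's 95% limit for 8 values). Chance flags about 1 in 20 such groups, and the measures share their libraries. The summed level of the 10 members was 1683 FPKM in the first library of mouse 2, with the next library at 2009.9 FPKM, a gap of 0.666 of the range. The share of Tubb2a among beta genes was 20.03% in the same library and 21.3% in the next, a gap of 0.625 of the range. None of the 10 members had such a library on its own. That library had the fewest bases on transcripts (1.31 gigabases).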

How the results depend on the processing

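The count of members that differed between the mice (2) was 4 with a minimum of 5 FPKM, with median-ratio scaling and with limma's trend and robust settings, 5 with all libraries at an equal total and with the GC trend removed, and 0 without mouse 3. Without the length trend the count was 3 (Tuba4a, Tubb3 and Tubb4a), each lower in mouse 3. It ranged from 0 to 4 when 1 library was left out (0 without the second library of mouse 3, where 3 had an unadjusted p under 0.05). The share of all genes called rose too, from 25.5% to 36.8% with 5 FPKM, 30.04% with median-ratio scaling, 27.7% with trend and robust settings, 43.3% at an equal total and 32.8% without the GC trend. Without the length trend this share was lower, at 20.3%. The count of pathway genes (15) ranged from 1 to 18 when 1 library was left out and was 0 without mouse 3, with 3 at an unadjusted p under 0.05. Calls over all genes (3310) were 5634 with an equal total, 1635 to 1835 without 1 library of mouse 1, 126 without the second library of mouse 3 and 3 without mouse 3. Deviations from the mouse mean had r of 0.003 to 0.107 between same-numbered libraries of different mice, and -0.135 to 0.0645 between the others. These weak values do not settle whether the library numbers pair the samples. With the number as a replicate block, 3 members, 19 pathway genes and 2995 genes in all passed, 67.7% of the latter with mouse 3 highest.

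The summed level turned from 0.09 to -0.21 with an equal total (exact permutation p = 0.0214) and to -0.079 without the length trend, passed at 0.057 without the GC trend (p = 0.025), and was -0.14 between mice 2 and 1 without mouse 3. The alpha to beta ratio ranged from 0.37 to 0.56 without 1 library, and was 0.0064 without mouse 3. The order of levels kept 8 or 10 of 10 places in other settings and 6 with the median over libraries. Differences turned in sign with an equal total for Tuba1b (-0.045), Tubb4b (-0.13) and Sirt2 (-0.027), and without the length trend for Tubb4b (-0.041) and Tbca (-0.10). The cause of these shifts was not tested. The fits without mouse 3, without the GC trend and the ratios without Tuba1a or Tubb4a were chosen after seeing the data. No counts are given, so depth sets no interval here. In simulated data, where only 200 of 13001 genes were changed, a change of 1 (log2) in 1 mouse was found for 170 of 200 genes. A change of 0.5 was found for 1 of 200. In the data 25.5% of genes passed, which makes the Benjamini-Hochberg cut-off less strict, so these rates do not carry over to the data.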
